A study of Medicago sativa with 9 samples.

Results

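The most abundant long non-coding RNAs (lncRNAs) of the alfalfa leaf were 150 transcripts, out of 64684 listed, whose mean over 9 libraries was at least 100 FPKM. FPKM counts fragments per length of transcript and per size of the library, so that levels can be compared between transcripts of different length. The 150 came from 133 loci. They were chosen by their measured FPKM, so their levels are a description and carry no test. The last 3 inside the threshold, MSTRG.142621.3, MSTRG.37277.1 and MSTRG.2465.1, averaged 100.45, 100.38 and 100.36 FPKM, and the first 3 outside it, MSTRG.2275.1, MSTRG.2333.1 and MSTRG.156424.1, averaged 99.4, 98.7 and 97.9 FPKM.

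The plants were field-grown Medicago sativa of the cultivar Kangsai, and all 3 groups were sprayed 3 times at intervals of 7 days from a height of 20 cm. The groups were control (CK), low Se (selenite at 100 mg/L) and high Se (500 mg/L), with 3 leaf libraries of rRNA-depleted total RNA each. The labels do not say what the control plants were sprayed with, and leave it unsaid whether libraries of 1 group are different plants. The p-values therefore rest on a spread between libraries that could be purely technical. The table names no protein-coding marker gene, so the leaf label could not be set against markers.

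A lncRNA is a transcript of at least 200 bases without a predicted protein. Such RNAs can be transcribed between genes, from introns, or from the strand opposite a gene, and some act on chromatin, on neighbouring genes or on small RNAs, while many have no known role. Alfalfa is an autotetraploid, so each chromosome is present as a set of homologs, named here by a number after the point (chromosome 5.1 to 5.4). No function is known from the table for any of the 150, and their host genes are identified only by number. Selenite is an inorganic selenium salt, and plants process selenium largely with the enzymes of sulfur assimilation.

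The 150 transcripts, or 0.232% of the rows, held 65.1% to 76.5% of the FPKM summed over all listed lncRNAs in a library. Shares of a library's FPKM given below refer to this sum. Their share averaged 70.6% ± 2.23 across control, 73.1% ± 3.11 across low Se and 68.6% ± 3.01 across high Se libraries (SD, n = 3 each), and the groups overlapped. Counted as bases aligned to the listed lncRNAs in place of FPKM the share was 53.7% to 66.5%. Of all aligned sequence, as implied by the ratio of coverage to FPKM, the members held 6.35% to 9.71%. All listed lncRNAs together held 11.8% to 15.6% of it. Abundance fell steeply with rank: 4 transcripts averaged over 10000 FPKM, 24 were between 1000 and 10000, 53 between 200 and 1000, and 69 between 100 and 200. The 10 highest alone held 47.1% to 60.8% of the FPKM of a library. The aligned sequence implied by the ratio of coverage to FPKM was 1.44 to 2.97 gigabases per library. The median coverage of the 150 was 269 to 696 reads per base, against 0.495 to 2.74 for the 43763 transcripts that entered the tests, which average 0.5 FPKM or more.

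**Figure D1:**
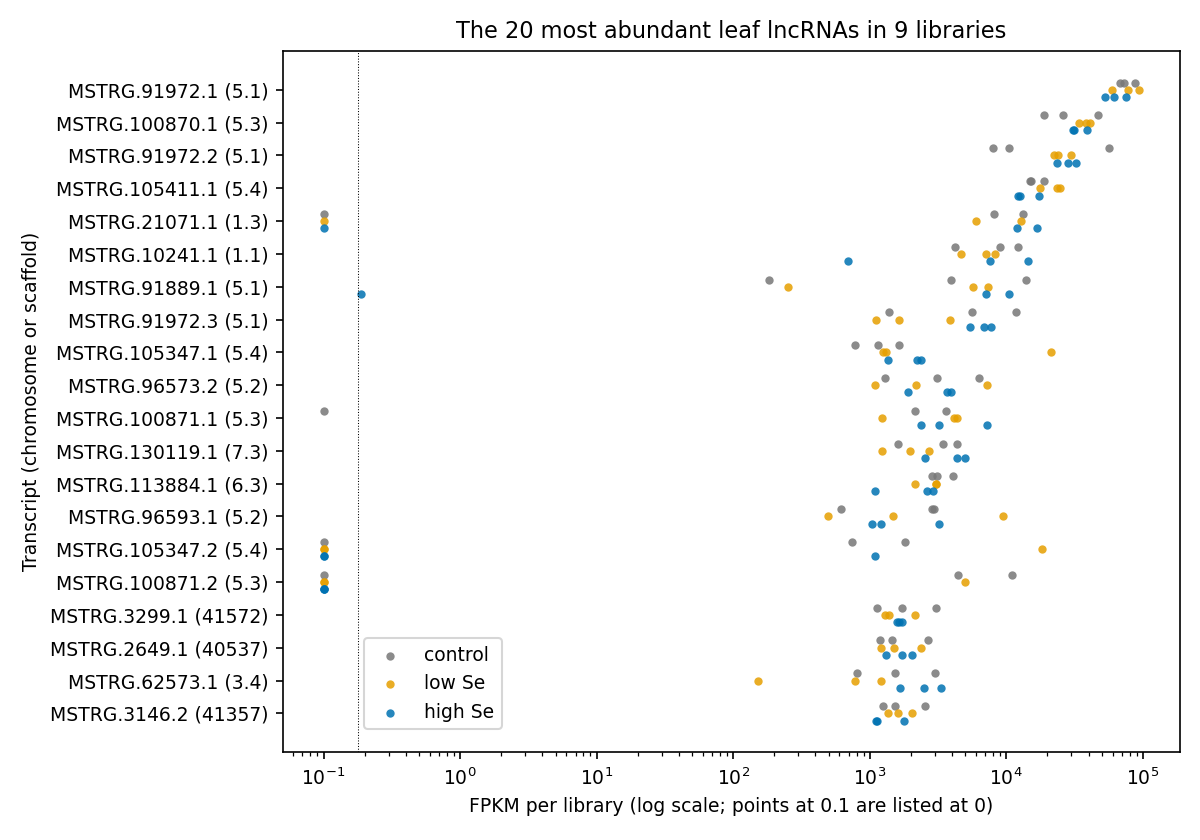
FPKM in each of the 9 libraries (log scale) of the 20 most abundant lncRNAs, one row per transcript, coloured by group; points left of the dotted line are listed at 0. The 4 highest are at 8049 FPKM or more in every library, while MSTRG.21071.1, MSTRG.105347.2 and MSTRG.100871.2 are listed at 0 in at least 1 library of every group.

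Chromosome 5 carried most of this abundance. Its 22 members, 14.7% of the 150 beside 10.98% of all rows, held 74.5% of the members' mean FPKM and 47.0% to 62.3% of the summed FPKM of a library. All 4 homologs took part: the 8 members on 5.1 summed to 109722 FPKM on average, the 5 on 5.3 to 40811, the 4 on 5.4 to 23675 and the 5 on 5.2 to 8207. Of the 22, 18 started beyond position 69000000 of their homolog, a region that holds 17.0% of the table's chromosome 5 rows and was picked out after the positions were seen. These 18 held 74.2% of the members' mean FPKM.

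The leading locus, MSTRG.91972 on chromosome 5.1 (71793729 to 71841658, minus strand), had 3 forms and averaged 103448 FPKM. Its first and second forms share start, end, a length of 303 bases and 2 exons with 681 bases between them, and are antisense to MS.gene038092; the third reaches to MS.gene038090 and spans 47640 bases beyond its exons. The first form had 88049, 68486 and 73124 FPKM in the control libraries, 59905, 78303 and 93638 in those of low Se and 74700, 61393 and 52472 in those of high Se. It was among the 5 most even of the 150, with a coefficient of variation (CV, the SD over the mean) of 0.185 over the 9 libraries. The second form was less even (CV 0.538). It measured 56538, 10413 and 8049 FPKM across control, 29919, 22313 and 23941 across low Se and 28357, 23569 and 32449 across high Se libraries, so that control alone held both its highest and its lowest values. The third form averaged 5047 FPKM and measured 1381, 5587 and 11869 FPKM across control, 3882, 1111 and 1634 across low Se and 7690, 6817 and 5450 across high Se libraries. The first form made up 58.1% to 81.1% of the locus, which summed with a CV of 0.187. How reads were divided between forms with the same ends was not tested.

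The transcript of rank 7, MSTRG.91889.1 (238 bases, 2 exons, 70662518 to 70691883, plus strand, over MS.gene016968), lies on the same homolog and was among the least steady of the highest 10. It measured 13937, 3931 and 183 FPKM across control, 254, 5662 and 7324 across low Se and 7133, 0.187 and 10378 across high Se libraries, so that every group held both low and high values.

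The plus strand of the MSTRG.91972 interval was measured at far lower levels. MSTRG.91973.1 (294 bases, 71793729 to 71794704, plus strand) had 426, 155 and 251 FPKM in the control libraries, 245, 244 and 163 in those of low Se and 347, 292 and 418 in those of high Se. The minus-strand form was 126 to 575 times as high in the 9 libraries. The other plus-strand form, MSTRG.91973.2, spans to 71841658 and was listed at 0 in 1 library of each group (control 3, low Se 1, high Se 1).

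On chromosome 5.3, MSTRG.100870.1 (350 bases, 2 exons, 71944179 to 72030542, plus strand) overlaps MS.gene70851 in sense and has 86014 bases between its exons. It had 46571, 25986 and 18949 FPKM in the control libraries, 34250, 38393 and 40662 in those of low Se and 30724, 31564 and 39123 in those of high Se. Its second form, MSTRG.100870.2, had 9154 FPKM in low Se 1 and at most 249 in any other library. The opposite strand holds MSTRG.100871.1, at 1223 to 7209 FPKM in 8 libraries and listed at 0 in control 1. MSTRG.100871.2 (72030114 to 72030533, minus strand) was above 0 only in control 1, control 2 and low Se 3, at 10974, 4426 and 4998 FPKM.

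The chromosome 5.4 group was MSTRG.105411.1 and locus MSTRG.105347. MSTRG.105411.1, an intergenic single exon of 327 bases (71329312 to 71329638, plus strand), had 15113, 14802 and 18833 FPKM in the control libraries, 17716, 24658 and 23382 in those of low Se and 17327, 12109 and 12565 in those of high Se. Its high Se libraries all lay below its low Se libraries, with a limma adjusted p of 0.648. Both forms of MSTRG.105347 (70386291 to 70392203, minus strand, over MS.gene038185) were dominated by low Se 1. The first form had 21316 FPKM there and 783 to 2366 in the other 8 libraries. The second had 18291 FPKM there, 739, 1820 and 1092 in control 2, control 3 and high Se 1, and was listed at 0 in the other 5. The low Se 1 library thus held 57382 FPKM on chromosome 5.4, against 14386 to 25946 in the others.

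On chromosome 5.2 the levels were lower. MSTRG.96573.2 (304 bases, 3 exons, 75793156 to 75793713, plus strand) averaged 3409 FPKM, from 1090 in low Se 2 to 7187 in low Se 3, and MSTRG.96573.1, which overlaps MS.gene47662 with 68953 bases between its exons, averaged 1020. The second of these lay between 376 and 2991 FPKM in 7 libraries and was at 4.03 in control 3 and 11.6 in high Se 1. MSTRG.96593.1 (290 bases, 3 exons, minus strand, MS.gene47649) averaged 2588 FPKM, with 9401 in low Se 1. Near copies on homologs can share reads, so levels of single chromosome 5 transcripts are uncertain.

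**Figure D2:**
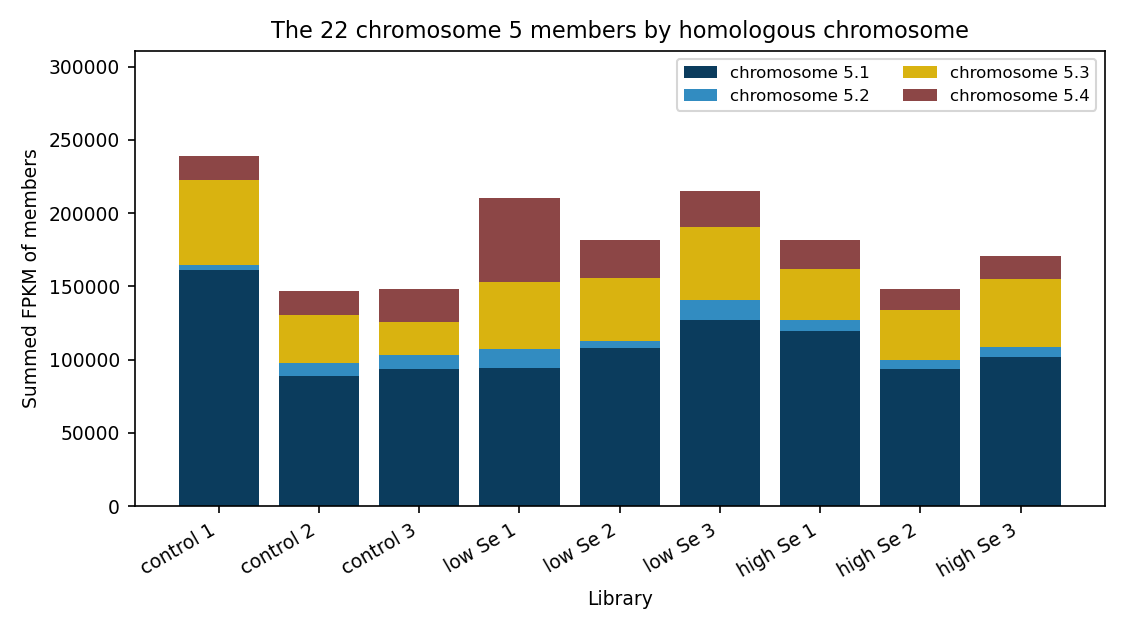
Summed FPKM of the 22 chromosome 5 members in each library, stacked by homologous chromosome (bars start at 0). Chromosome 5.1 is the largest part in every library, from 88819 to 161085 FPKM, and chromosome 5.4 is largest in low Se 1.

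The sum over the chromosome 5 members ran from 146901 FPKM in control 2 to 239099 in control 1. Its CV was 0.182, beside 0.185 for its largest transcript, MSTRG.91972.1.

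Chromosome 1 held the next largest part, 8.14% of the members' mean FPKM in 14 members. A pair of single-exon intergenic transcripts made up most of it, MSTRG.21071.1 on 1.3 (303 bases, 70526053 to 70526355) and MSTRG.10241.1 on 1.1 (292 bases, 73732096 to 73732387). MSTRG.10241.1 had 12082, 4182 and 8981 FPKM in the control libraries, 8263, 7082 and 4660 in those of low Se and 7557, 696 and 14443 in those of high Se. MSTRG.21071.1 was listed at 0 in 1 library of each group (control 3, low Se 1, high Se 2) and was between 6008 and 16783 FPKM in the other 6. High Se 2 was thus the lowest library for the chromosome 1 members as a whole, at 3845 FPKM, against 13043 to 34816 in the others. On 1.2, locus MSTRG.14772 (64397107 to 64398231, minus strand) had 4 members of 247 to 249 bases and 2 or 3 exons, which end within 2 bases of each other. All 4 were at most 9.39 FPKM in control 1. The lead form, MSTRG.14772.1, stood at 2380 and 1103 FPKM in the other control libraries, at 642, 13.1 and 818 in those of low Se and at 457, 257 and 0 in those of high Se.

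The remaining chromosome sets held 1.11% to 2.88% of the members' mean FPKM each. Members lay on 29 of the 32 chromosomes and were lacking on 2.1, 3.1 and 7.4. Homologs of a set were unequal: 8 of the 11 chromosome 3 members lay on 3.4 and 6 of the 9 chromosome 2 members on 2.3. All 14 chromosome 6 members started below position 23000000, where 29.0% of the chromosome 6 rows start, and 10 of the 11 chromosome 3 members started between 46000000 and 69000000, with 24.8% of the rows. These windows too were chosen after the positions were seen.

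Members of equal length on different homologs were set side by side. Only 4 pairs of members on different homologs of a set had the same length. They were MSTRG.91972.3 and MSTRG.96593.1 (290 bases), MSTRG.105347.1 and MSTRG.91973.1 (294 bases), MSTRG.106325.1 and MSTRG.116814.1 (260 bases), and MSTRG.25230.1 and MSTRG.14752.1 (223 bases). The ratio of the 2 members varied 15.8-fold, 32.3-fold, 6.20-fold and 12.4-fold over the 9 libraries in that order. The members of each pair differ in strand, exon number or class. Whether they are copies of the same transcript was not tested, so these ratios describe the 4 pairs and not homologs.

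Unplaced scaffolds carried 51 of the 150, or 34.0%, beside 4.72% of all rows and 26.9% of the 1092 transcripts of the next tier (mean of 10 to below 100 FPKM). They lay on 39 scaffolds and summed to 11809 to 23152 FPKM per library, with the highest values in control 3, low Se 1 and high Se 3. Of these 51, 49 were intergenic, 36 were unspliced and 32 were listed without a strand. The scaffold with the highest member was 41572, where MSTRG.3299.1 (272 bases, 8681 to 8952) averaged 1747 FPKM.

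Where a scaffold held 2 members, these mostly lay at a similar distance from each other. On 12 of the 39 scaffolds there were 2 members, none held more, and in 9 of the 12 pairs the starts were 10224 to 10904 bases apart. Among these 9, MSTRG.3146.1 with MSTRG.3146.2 and MSTRG.2178.1 with MSTRG.2178.2 are overlapping forms of 1 locus that share an end. Distances between other scaffold rows were not counted. A 10th pair, MSTRG.2184.1 and MSTRG.2192.1, was 20525 bases apart. In several pairs the library values moved nearly in step. MSTRG.2400.1 and MSTRG.2402.1 on scaffold 40116 (526 to 1147 and 11430 to 12076) had a ratio of 1.08 to 1.10 in all 9 libraries. MSTRG.2819.1 was 1.19 to 1.24 times MSTRG.2822.1, and MSTRG.2898.1 was 0.943 to 1.04 times MSTRG.2897.1. MSTRG.2122.1 was 3.04 to 3.19 times MSTRG.2123.1 in 8 libraries. In control 1 the same pair was listed at 593 and 0 FPKM. MSTRG.3218.1 was at the median 0.988 times MSTRG.3220.1, but 12.1 times in high Se 3.

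A like distance appeared inside spliced scaffold members, among them the forms of MSTRG.3146 and MSTRG.2178 already counted as pairs. Of the 15 scaffold members with 2 exons, 7 had a gap between the exons of 10000 to 12000 bases and 4 a gap of 20000 to 22000 bases. Together these 11 were 73.3% of the 15, beside 22.8% of the 486 other 2-exon scaffold rows, 7.5% of the 40 chromosomal 2-exon members and 2.10% of the 9806 other chromosomal ones. The ranges were chosen after the gaps were seen, and no test was made. MSTRG.3146.1 and MSTRG.3146.2 on scaffold 41357 show both gaps. They share their end at 24016 on the minus strand, start 10255 bases apart, and have 20830 and 10577 bases between their exons. MSTRG.3146.2 had 1525, 1251 and 2543 FPKM in the control libraries, 2024, 1603 and 1361 in those of low Se and 1770, 1104 and 1127 in those of high Se, and was 0.871 to 1.03 times MSTRG.3146.1. MSTRG.2178.1 and MSTRG.2178.2 on scaffold 39803 have gaps of 21473 and 10580 bases, and there the ratio ran from 0.698 to 2.43. Whether these exons come from repeated copies of a unit was not tested, as no genome sequence was used here.

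**Figure D3:**
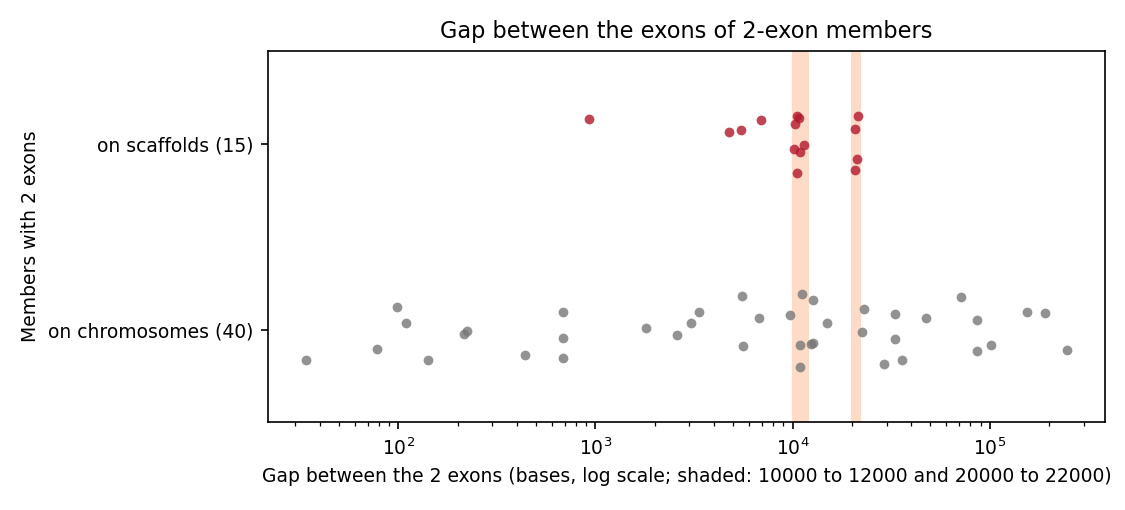
Gap between the 2 exons of each 2-exon member, in bases (log scale), for the 15 on scaffolds and the 40 on chromosomes; vertical scatter is random. Of the scaffold members, 11 fall in the shaded ranges of 10000 to 12000 and 20000 to 22000 bases, while those on chromosomes are spread out.

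The members differed from the table in class and structure. Intergenic transcripts were 68.0% of the members and 69.3% of all rows. Sense-overlapping ones were 17.3% and 2.52%, antisense ones 10% and 1.88%, and intronic ones 2.67% and 22.1%. In the next tier these 3 classes were 6.78%, 7.42% and 7.51%. Of the 26 sense-overlapping members all lay on chromosomes. A single exon was found in 53.3% of the members and 79.0% of all rows, and no strand in 40.0% and 71.1%. The next tier was close to the members in both, at 60.1% and 41.4%. The minus strand held 55 members and the plus strand 35, against 9004 and 9721 of all rows. Spliced transcripts with over 10000 bases between their ends beyond the exons were 27.3% of the members, 15.4% of the next tier and 3.53% of all rows. Such a gap is an assembled junction that was not checked against reads.

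Members were short: the median length was 289.5 bases, against 382 in the next tier and 313 over all rows, and 54.7% were shorter than 300 bases, against 33.5% and 46.6%. The members were chosen on a value that is divided by length, and the part of this in their lengths was not tested. Only 6 reached 1000 bases, the longest being MSTRG.109435.1 on chromosome 6.2 (4999478 to 5001450, a single exon of 1973 bases), at a mean of 590 FPKM. The median of the deposited CPC coding potential score was 0.0203, against 0.0154 over all rows, and that of the CNCI score -0.0248, against -0.00041. In the next tier these medians were 0.0245 and -0.0246.

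Of 44 pairs of members within 10 kb of each other, 19 were on opposite strands. They came from 7 pairs of loci, and 14 of the 19 from 3 of these (MSTRG.91972 with MSTRG.91973, MSTRG.100870 with MSTRG.100871, and MSTRG.62573 with MSTRG.62572). Among them the minus-strand MSTRG.62573.1 and the plus-strand MSTRG.62572.2 on chromosome 3.4 (48328049 to 48364441 and 48328110 to 48341171) had a ratio of 1.40 to 9.60. The plus-strand MSTRG.35971.1 was 4.10 to 9.95 times the minus-strand MSTRG.35970.1 on chromosome 2.3, which has the same start at 3121079. On chromosome 3.4, MSTRG.63692.1 was 3.69 to 7.17 times MSTRG.63693.1 on the other strand, again with a shared start. The library kit keeps the strand per the labels, but how the reads were assigned to strands was not tested.

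The 14 loci with several members differed in how steady the balance of their forms was. The forms of MSTRG.154283 on chromosome 8.4 kept close to a fixed balance, with the lead form at 62.1% to 68.2% of the locus. MSTRG.3146 was as steady, at 46.5% to 50.8%. Elsewhere the lead form changed with the library: MSTRG.62573.1 made up 9.68% of its locus in low Se 1 and all of it in control 3 and high Se 2. MSTRG.113764.2 on chromosome 6.3, antisense to MS.gene074567, had 2317 FPKM in control 1 and 249 to 502 in the other 8 libraries, while MSTRG.113764.1 ranged from 320 to 895. In MSTRG.110357 on chromosome 6.2, the form MSTRG.110357.3 reached 3286 and 3647 FPKM in control 2 and control 3, but only 12.3 to 39.3 in the other 7 libraries, control 1 included. MSTRG.62572.2 made up 46.2% to 76.5% of its locus. In 2 loci already described, MSTRG.91973.1 made up 34.4% to 100% and MSTRG.96573.2 40.1% to 99.9%.

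Most members were found in every library, yet few were even. All 9 libraries were above 0 for 116 members (77.3%), beside 70.2% of the next tier and 11.6% of all rows. Of the members, 53 had at least 100 FPKM in every library. Among the 116, the highest library was at the median 4.04 times the lowest, and for 9 members less than 2 times. The median CV was 0.547, beside 0.603 in the next tier and 1.25 over the tested transcripts. It was 0.376 for the scaffold members and 0.659 for those on chromosomes. In such bulk samples, fewer cells of a type and less RNA per cell cannot be told apart.

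The most even member was MSTRG.39134.1 (224 bases, intergenic, chromosome 2.3, 62919839 to 62920062), with a CV of 0.0870. It had 556, 437 and 533 FPKM in the control libraries, 504, 536 and 589 in those of low Se and 524, 572 and 491 in those of high Se, and no group stood apart. MSTRG.931.1 (955 bases, antisense to MS.gene001567 on scaffold 21193) came next, with 292, 311 and 272 FPKM in the control libraries, 266, 275 and 264 in those of low Se and 225, 227 and 223 in those of high Se. Its high Se libraries lay below all others, with a difference from control of -0.37 ± 0.38 (SE) on the log2(FPKM + 0.1) scale and a limma adjusted p of 0.777. MSTRG.91972.1, MSTRG.3012.1 and MSTRG.123823.1 completed the 5 most even, with CVs of 0.185, 0.187 and 0.201. MSTRG.123823.1, on chromosome 7.2, shares a junction with MS.gene024475, has 5 exons and averaged 835 FPKM.

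At the other end, 17 members had over 50% of their summed FPKM in 1 library. Of these, 5 were highest in low Se 1, 4 in control 3, and no other library led for more than 2. The 5 most uneven all lay on scaffolds. MSTRG.2594.1 was at 3052 FPKM in high Se 3, MSTRG.2214.1 at 2498 in low Se 1 and MSTRG.3028.1 at 1803 in control 3, and each was listed at 0 in the other 8 libraries. MSTRG.2213.1 had 1374 FPKM in control 2, 21.1 in control 1 and was listed at 0 elsewhere. MSTRG.2231.1 had 910 FPKM in high Se 1 and at most 4.96 in the others. MSTRG.2213.1 and MSTRG.2214.1 overlap on opposite strands of scaffold 39906 and share an end at 21159, and no library had both above 0.

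Listings at 0 occurred in all 9 libraries. In all, 34 members were listed at 0 in 1 or more libraries, and between 8 and 16 members in each library. Only 6 were listed at 0 in all 3 libraries of a group, the 4 named above with most of their FPKM in 1 or 2 libraries, MSTRG.100871.2 in high Se, and MSTRG.2184.1 (240 bases, scaffold 39840) in low Se. MSTRG.2184.1 was at 445, 126 and 0 FPKM in the control libraries, listed at 0 throughout low Se, and at 0, 327 and 145 FPKM in the high Se libraries. Values of 0 in members that are high elsewhere are given as listings, and their cause was not tested.

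**Figure D4:**
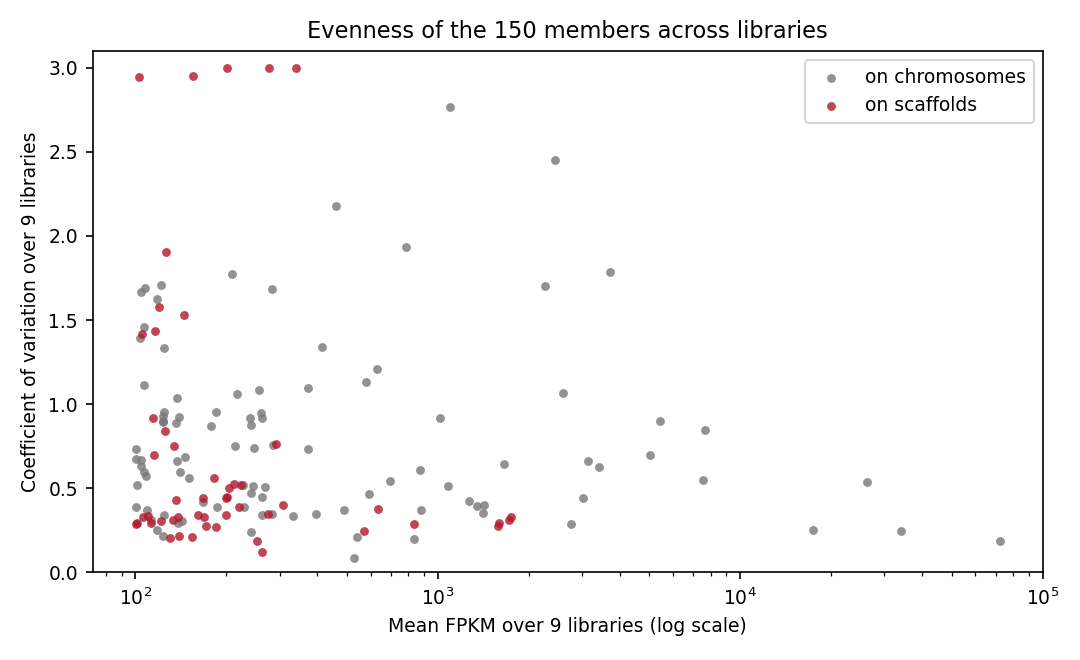
Coefficient of variation over the 9 libraries against mean FPKM (log scale) for the 150 members, coloured by place on chromosomes or scaffolds. The 4 members over 10000 FPKM have values of 0.185 to 0.538, and the 5 scaffold members near 3 have nearly all their FPKM in 1 library.

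The dose comparisons asked which abundant lncRNAs differed with selenite. In low Se against control, 1 of the 150 members passed a limma adjusted p of 0.05, beside 0.0274% of the 43763 tested transcripts. In high Se against control the same 1 member passed, beside 0.0229%, and so did it when all 3 groups were tested together, beside 0.0434%. In high Se against low Se, none passed, beside 0.0206%; there 29 members had an unadjusted limma p under 0.05, or 19.3%, beside 14.6% of the next tier and 7.84% of the tested transcripts. Against control the same count was 21 at low Se (14% of members, 14.5% of the next tier, 8.43% of the tested) and 24 at high Se (16%, 15.6% and 9.26%). None of the 10 most abundant members passed any of these tests, with limma adjusted p of at least 0.510. The median standard error of a member's log2(FPKM + 0.1) difference was 0.55.

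The member that rose at both doses was MSTRG.91813.1, an unspliced, 415-base intronic transcript with MS.gene47024 as host (chromosome 5.1, 69642576 to 69642990, minus strand). It ranked 143rd of the 150, and was near 0 in all control libraries. Its group means were 0.153 FPKM (control), 57.8 FPKM (low Se libraries) and 254 FPKM (high Se libraries). It passed the threshold of 100 FPKM only through high Se, so its place among the members is not independent of that difference. It had 143, 16.04 and 14.6 FPKM in the low Se libraries, against 0.373, 0.0871 and 0 in control (log2(FPKM + 0.1) difference 7.29 ± 0.89 SE, limma adjusted p = 0.00576). The high Se libraries held 420, 103 and 239 FPKM of it, a difference from control of 10.04 ± 0.89 with a limma adjusted p of 0.000204. Both comparisons use the same control libraries, and the size of the difference depends on the 0.1 added. The low Se call was lost without control 2, control 3, high Se 1 or high Se 2 (limma adjusted p up to 0.116), and the high Se call without high Se 1 (0.0522). It lies 2.15 Mb from the MSTRG.91972 locus on the same homolog, whose forms passed no test.

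Several other members had groups that did not overlap, yet their differences did not pass. MSTRG.36675.1, an intergenic single exon of 1079 bases on chromosome 2.3 (12542599 to 12543677), measured 10.5, 74.8 and 42.8 FPKM across control, 610, 324 and 215 across low Se and 480, 486 and 316 across high Se libraries. Every selenite library was above every control library. The log2(FPKM + 0.1) difference from control was 3.43 ± 0.62 (SE) at low Se, with a limma adjusted p of 0.0748, and 3.69 ± 0.62 at high Se, with 0.0622. MSTRG.36675.1 averaged 42.7 FPKM in control, so it passed the threshold of 100 FPKM only through the selenite groups.

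MSTRG.144029.1, a 2-exon transcript of 289 bases overlapping MS.gene95131 on chromosome 8.2 (1119383 to 1121481, minus strand), was high only in high Se. It measured 0, 0 and 12.2 FPKM across control, 0, 8.93 and 7.08 across low Se and 379, 279 and 276 across high Se libraries. Limma adjusted p was 0.0733 against control and 0.283 against low Se. MSTRG.61400.1 (202 bases, 2 exons, MS.gene85529, chromosome 3.4) measured 57.0, 141 and 35.9 FPKM across control, 52.8, 71.8 and 105 across low Se and 518, 313 and 663 across high Se libraries. Its limma adjusted p was 0.101 against control and 0.186 against low Se. Both transcripts averaged 100 FPKM or more in high Se alone, as did MSTRG.91813.1. Their place among the members is therefore not independent of these differences.

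In 5 members all 6 selenite libraries lay below all control libraries, and in 2, MSTRG.91813.1 and MSTRG.36675.1, above them. The share of tested transcripts with either order was not counted, so these counts have no background. The 5 were MSTRG.72084.1, MSTRG.133512.1, MSTRG.153314.2, MSTRG.3307.1 and MSTRG.148329.1, the last 2 named after their values were seen. The first 3 and MSTRG.2192.1 were among the members with the smallest p-values against control. MSTRG.133512.1, MSTRG.153314.2, MSTRG.148329.1 and MSTRG.2192.1 averaged 100 FPKM or more in control alone. Their place among the members is not independent of their fall from control. MSTRG.72084.1 (269 bases, chromosome 4.2, 4064215 to 4064483) had 102, 44.5 and 33.0 FPKM in the low Se libraries, against 677, 359 and 432 in control, with a limma adjusted p of 0.0748. In high Se it had 300, 136 and 67.4 FPKM, also below control. MSTRG.133512.1 (226 bases, chromosome 7.3) had 57.6, 0.229 and 0.268 FPKM in the low Se libraries, against 178, 129 and 386 in control (limma adjusted p = 0.105). Its high Se libraries, at 39.2, 88.7 and 83.9 FPKM, overlapped low Se.

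MSTRG.2192.1 on scaffold 39840 had 2.97, 1.29 and 3.19 FPKM in the low Se libraries, against 254, 426 and 27.5 in control (limma adjusted p = 0.113), while high Se gave 2.78, 168 and 63.1 FPKM and overlapped control. The antisense MSTRG.153314.2 (230 bases, chromosome 8.3, host MS.gene07836) had 25.1, 54.9 and 47.9 FPKM in the high Se libraries, against 161, 204 and 397 in control (limma adjusted p = 0.156). Between the doses, MSTRG.32508.1 and MSTRG.15795.1 completed the 5 smallest p-values. MSTRG.32508.1 (1108 bases, chromosome 2.2) had 205, 89.2 and 188 FPKM in the high Se libraries, against 34.5, 51.7 and 10.8 in low Se (limma adjusted p = 0.288). Its control libraries, at 107, 128 and 124 FPKM, lay within the range of high Se. MSTRG.15795.1 (291 bases, 2 exons over MS.gene34375, chromosome 1.2) had 779, 992 and 1412 FPKM in the high Se libraries, against 955, 63.7 and 14.5 in low Se (limma adjusted p = 0.392). Its low Se 1 library overlapped high Se, and so did its control libraries, at 888, 1269 and 1506 FPKM.

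**Figure D5:**
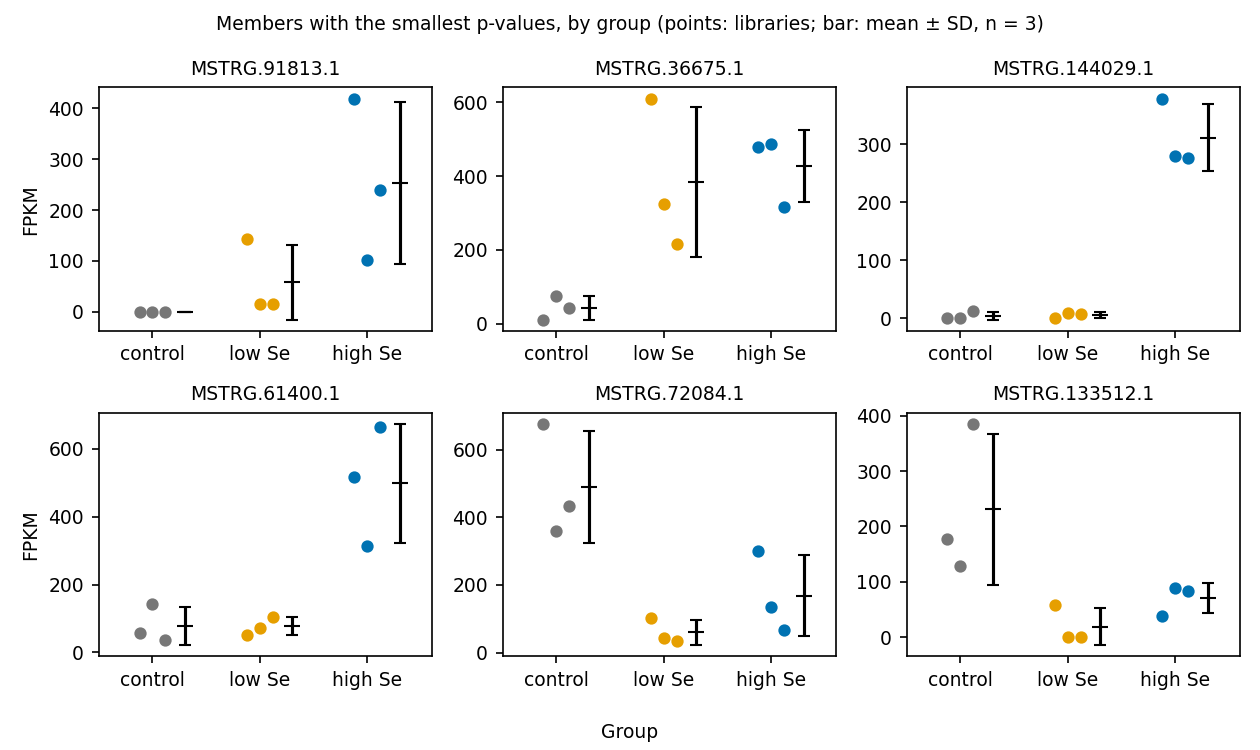
FPKM in each library (points) and mean ± SD (bars, n = 3) by group for 6 members among those with the smallest p-values; each panel has its own linear axis. MSTRG.91813.1 is the only one that passed the test, and MSTRG.144029.1 and MSTRG.61400.1 are high in the 3 high Se libraries alone.

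Counted without a test, 28 members had all high Se libraries above all low Se libraries and 9 had them below. Over the tested transcripts these counts correspond to 7.31% and 3.94%, beside 18.7% and 6% of the members. In the next tier they were 15.7% and 4.49%. The 28 came from 28 loci, 20 of them on chromosomes and 8 on scaffolds, with a median log2 difference of 1.10. After quantile normalization the counts were 20 and 15 (13.3% and 10%, beside 5.97% and 5.16% of the tested transcripts). The next tier was then close to the members, at 11.996% and 7.78%. After median-of-ratios rescaling the counts were 26 and 10 (17.3% and 6.67%, beside 6.697% and 4.497% of the tested transcripts). There the next tier was at 13.2% and 6.23%. In high Se against control, 10 members lay above and 9 below (6.67% and 6%, beside 7.81% and 4.02%). These became 8 and 12 after median-of-ratios rescaling (5.33% and 8%, beside 7.33% and 4.45% of the tested transcripts). After quantile normalization they were 16 and 6 (10.7% and 4%, beside 6.86% and 5.08%), so the balance turned with the scaling. In low Se against control, 6 lay above and 9 below (4% and 6%, beside 4.78% and 4.32%). After median-of-ratios rescaling these were 6 and 10 (4% and 6.67%, beside 4.92% and 4.44%). After quantile normalization they were 13 and 8 (8.67% and 5.33%, beside 5.02% and 4.33%).

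The median of the members lay close to that of the table. Their median log2(FPKM + 0.1) difference was -0.13 in low Se against control, 0.08 in high Se against control and 0.30 in high Se against low Se, beside 0.00, 0.26 and 0.20 over all tested transcripts. The first turned to 0.12 after quantile normalization, and the second to -0.01 after median-of-ratios rescaling. Quantile normalization moved the median of all tested transcripts to 0.04 in high Se against control and to 0.00 in high Se against low Se. By group mean, 59 members peaked in control, 27 at low Se and 64 at high Se. The same count was not made over the tested transcripts, so it has no background. Some members, such as MSTRG.91813.1, passed the threshold only through the group where they peaked.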

How the data were processed

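Leaf lncRNAs were profiled in 9 alfalfa libraries of rRNA-depleted total RNA (about 5 µg, integrity number above 7, dUTP in the second strand, per the labels' protocols). HISAT2, Bowtie2, StringTie and edgeR appear in the submitters' processing notes, without versions or stated use. Coordinates are those of the deposited table; its genome build is not given in the sources used here. Per the file headers, the authors' table holds 1 FPKM column and 1 coverage column (a depth-dependent signal) per library. The value 0.0001, which the authors listed in place of 0, was set to 0. Deposited CPC and CNCI scores give coding potential. The class codes were read as intergenic (u), intronic (i), junction-sharing (j), sense-overlapping (o) and antisense (x). The sequence of the transcripts was not used here.

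Members were rows with a mean of at least 100 FPKM. All 9 libraries entered 1 limma fit (limma 3.58.1, R 4.3.3, variance trend) of log2(FPKM + 0.1) over 43763 transcripts averaging 0.5 FPKM or more, all 150 members included. Benjamini-Hochberg adjustment covered all tested transcripts. Each SE of a log2 difference is the moderated value of this fit, drawn toward the spread of transcripts of similar level. Fold changes on this scale understate changes of low values. The test was checked on simulated data. Counts were not used here, so no count test or counting interval is given. Where reads of near copies are shared, single transcripts are uncertain. Transcripts named are the 10 highest, the 5 with the smallest p in each test, the 5 most and 5 least even, those at the threshold, those listed at 0 through a group, and several in pairs or loci with other members; others that lead a count were named after their values were seen. The members and lists were chosen with earlier results of these data known. Alternatives covered the pseudocount, filter, scaling, variance model, weights, replicate block, samples in the fit and each library left out. Python 3.11.15, NumPy 2.4.6, pandas 2.3.3 and matplotlib 3.10.9 were used for descriptions and figures.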

Additional observations from a re-analysis of the deposited data

How the results depend on the processing

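The count of members called was 1 in low Se against control. It was 0 with a pseudocount of 0.01 or without the variance trend, 5 with no filter and 2 with the replicate block. In a fit of the 6 libraries alone it was 3. With 1 library left out it ran from 0 to 5 (5 without low Se 1). Over all tested transcripts the count was 12, 9 with a pseudocount of 0.01 and 1 without the variance trend. It was 35 of 64684 with no filter, 23 in the 6 libraries alone and 10 with the block. With 1 library left out it ran from 2 to 30 (30 without low Se 1). In high Se against control the count of members was 1. It became 3 with a pseudocount of 1, with weights for libraries or in a fit of the 6 libraries alone. It was 4 with no filter and 2 with the replicate block, and ran from 0 to 2 with 1 library left out. Over all tested transcripts it was 10, 36 with a pseudocount of 1, 26 with weights and 38 in the 6 libraries alone. No filter gave 27 and the block 4, and the range with 1 library left out was 1 to 30. Between the doses the count of members was 0. It became 1 when 1 FPKM was added before the log and also when only the 6 libraries were fitted. With 1 library left out it ran from 0 to 3 (3 without low Se 1, 1 without low Se 3). Over all tested transcripts it was 9, 22 with 1 FPKM added and 21 in the 6 libraries alone. There the range with 1 library left out was 0 to 23 (23 without low Se 1, 3 without low Se 3). For any difference the count of members was 1, and became 3 with a pseudocount of 1, 7 with no filter and 2 with quantile normalization. It was 0 without the variance trend, 4 with weights and 2 with the replicate block, and ran from 0 to 5 with 1 library left out. Over all tested transcripts it was 19, and 66, 56 and 26 with the first 3 of these changes. Without the trend it was 5, with weights 47 and with the block 15, and the range with 1 library left out was 1 to 37. Same-numbered libraries of different groups did not deviate together (r of -0.0302 to 0.0015 across transcripts over 9 pairs), so the numbers were not taken to pair them. The replicate block added MSTRG.72084.1 at low Se and MSTRG.144029.1 at high Se and in the test of any difference. MSTRG.91813.1 passed at both doses with the block, and in 5 of the 9 fits with 1 library left out at low Se and 8 of 9 at high Se. The cause was not tested.

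The number of members was 270 at a threshold of 50 FPKM and 81 at 200. The median in place of the mean gave 116 rows, of which 111 are among the 150. With 1 library left out it was 139 to 151, with 137 to 149 of the 150 kept. As bases aligned to the listed lncRNAs the members' share was 60.0% across control, 62.3% across low Se and 57.5% across high Se libraries. The members other than the MSTRG.91972 locus held 39.9%, 43.1% and 39.6% of a library's summed FPKM, a sum that still includes this locus. With 1 library left out, the shares of FPKM were 69.4% to 71.5%, 71.4% to 74.4% and 67.5% to 70.3%.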

Other observations

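By the choice of members, every other row of their loci and every neighbour averaged under 100 FPKM. Of 158 other rows within 10 kb of a member, 142 were tested and none passed a limma adjusted p of 0.05 in any of the 3 comparisons. At an unadjusted limma p under 0.05 there were 11 in low Se against control, 15 in high Se against control and 12 in high Se against low Se, that is 7.75%, 10.6% and 8.45%, beside 8.43%, 9.26% and 7.84% of all tested transcripts.

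Pairs of scaffold members had a median Pearson's r of 0.247 over the 9 libraries on the log2(FPKM + 0.1) scale, beside 0.0034 for pairs of members on chromosomes. This is a description over 9 points that share the scaling of a library. Of the 1275 scaffold pairs 24 were above 0.9, and of the 4851 chromosomal pairs 22 were.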
